A study of Mus musculus with 8 samples.

Results

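Chromosome 16 of the mouse was followed probe by probe in 8 liver tumors. The probes were all non-control probes that the array files place on chromosome 16 of the mm9 build, 6274 of the 170183 probes on the autosomes and X (3.69%). They run over chr16:3257712-98280304 with a median spacing of 11.1 kb and a widest gap of 307 kb. Each tumor came from a different male FAH-/- mouse. The Fah enzyme, fumarylacetoacetate hydrolase, completes the breakdown of tyrosine, and mice without it depend on the drug NTBC (nitisinone), which blocks the pathway at an earlier step. The mice drank NTBC at 7.5 mg/L, and the tumors arose while the dose was held at 2.5% of that for 6 to 12 months. Tumor DNA carried the dye Cy5 and competed on each array with Cy3-labelled liver DNA pooled from 6 male FAH+/+ littermates. All 8 arrays form 1 group, and tumors are numbered 1 to 8 in the order of deposition. The reference is a single pool, so differences between control mice enter no error given here, and normal liver of the tumor-bearing mice was not analysed here. The DNA came from tumor tissue whose share of tumor cells is not stated.

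Array comparative genomic hybridization reads the ratio of tumor to reference DNA at each probe, given here as log2, with the commonest autosomal level of each tumor set to 0. Extra copies of a whole chromosome arise when sister chromatids missegregate in mitosis. Gains of part of a chromosome need breaks or rearrangements, and their edges mark where the copy number steps. If all cells of a diploid tumor held 1 extra copy, the log2 ratio would be 0.58. Neither ploidy nor how many cells carry a change was measured, so ratios are not copy numbers. The arrays also shared a pattern from probe to probe: over the chromosome 16 probes the correlation between 2 arrays lay between 0.915 and 0.968 among tumors 1 to 6 and between 0.729 and 0.833 where tumor 7 or 8 was one of them, as a description over probes that share sequence and reference pool. Values are therefore given on 2 scales, with this pattern kept and with it removed. The noise between neighbouring probes was 0.39 to 0.65 on the first scale and 0.12 to 0.21 on the second. Removing the pattern largely keeps gains of single tumors and takes away much of what most arrays share. The pattern is drawn from all 8 arrays, so its removal can also take off part of a single tumor's own gain. After removal the correlation lay between -0.30 and 0.30 among tumors 1 to 6. It was highest between tumors 7 and 8, at 0.39.

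Tumor 5 carried a gain of the whole of chromosome 16, tumor 4 a stepped gain that was highest between about 40 and 55 Mb, and the other 6 tumors no gain of the chromosome as a whole. The chromosome 16 mean log2 ratio with the pattern kept was 0.0084 in tumor 1, 0.016 in tumor 2, 0.0095 in tumor 3, 0.14 in tumor 4, 0.72 in tumor 5, 0.049 in tumor 6, 0.0037 in tumor 7 and 0.0043 in tumor 8. Tumor 5 stands far above the rest and tumor 4 is next, while 5 of the remaining 6 means are 0.016 or less. On the second scale the same means were 0.014, 0.023, 0.021, 0.14, 0.72, 0.036, 0.015 and 0.058 in tumors 1 to 8, so the 2 highest values stayed in the same tumors. Among the 19 autosomes of its own tumor, chromosome 16 ranked number 1 in tumor 5, 2 in tumors 6 and 7, 3 in tumors 2 and 4, 4 in tumor 3, 5 in tumor 1 and 6 in tumor 8, counted from the highest mean. Of 160 pairs of a chromosome and a tumor, 7 were gained as a whole with the pattern kept and 8 with it removed (4.38% and 5.0%), and 1 of the pairs on each scale is chromosome 16, in tumor 5. The whole-gain rule asks that segments with a mean of at least 0.2 make up 80% or more of the probed length.

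**Figure D1:**
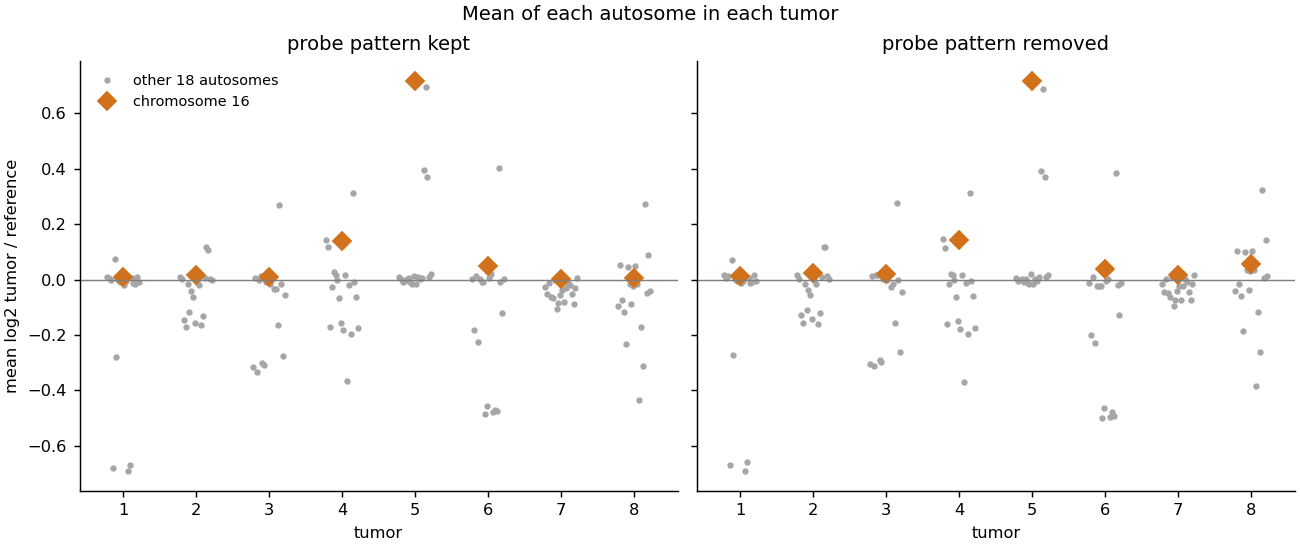
Mean log2 ratio of tumor over reference DNA (vertical axis) of chromosome 16 (diamonds) and of the other 18 autosomes (points) in each of the 8 tumors, with the probe pattern kept (left) and removed (right). Chromosome 16 is the highest autosome in tumor 5, at 0.72 on both scales, and lies near 0 in most other tumors.

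Over the 8 tumors the chromosome 16 mean was 0.12 ± 0.25 (SD, n = 8) with the pattern kept and above 0 in 8 of 8 tumors. Flipping the signs of the 8 values in every way (two-sided exact permutation test) gave p = 0.00781, the smallest that 8 tumors allow, and an adjusted p of 0.0391 over the 19 autosomes and X (Benjamini-Hochberg). That pass needs other chromosomes at the same smallest p: chromosomes 4, 7 and 8, all below 0 in 8 of 8 tumors, shared it. After removal of the pattern the mean was 0.13 ± 0.24 (SD, n = 8), again above 0 in 8 of 8 (exact p = 0.00781, adjusted p = 0.0781), and did not pass. The signs also rest on where 0 is set, since tumors 7 and 8 lay less than the 0.005 step of the search for the commonest level above it. Without tumor 5 the mean fell to 0.033 (exact p = 0.0156, adjusted p = 0.0521). A difference within each tumor does not depend on the zero: chromosome 16 exceeded the median of the other autosomes by 0.016, 0.033, 0.033, 0.16, 0.71, 0.059, 0.048 and 0.049 in tumors 1 to 8. It was higher in 8 of 8 tumors, by 0.14 ± 0.24 on average (SD, n = 8; exact sign-flip p = 0.00781, adjusted p = 0.125), and did not pass. The mean difference without tumor 5 was 0.057.

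The gain in tumor 5 reached from the first to the last probe. In 1 Mb bins, all 96 chromosome 16 bins of tumor 5 were at or above 0.2, against 17.3% of the 2531 bins of the genome in that tumor with the pattern kept and 16% with it removed. Bin means ran from 0.49 to 1.04 with the pattern kept and narrowed to 0.65 to 0.77 with it removed. On the latter scale the lowest bin of tumor 5 lay above the highest bin of every other tumor, which was 0.33, in tumor 4. There tumor 5 divided into 2 segments at almost the same height, 0.74 over chr16:3257712-38042290 (2716 probes) and 0.70 over chr16:38054137-98280304 (3556 probes). The step between them was fitted as -0.032 ± 0.011 (SE over probes) between 40118875 and 40133890, with an interval that spanned 2709 kb. This small step is 1 tumor with no replicate, and a rise in tumor 4 was fitted between the same 2 probes. Steps were fitted nearby on that scale in tumors 3, 6 and 7 as well, of -0.057, -0.051 and 0.095. Tumor 8 had larger ones, 0.13 between 38640152 and 38647390 and -0.12 between 40590508 and 40609420. Chromosomes 14, 15 and 17 were also high in tumor 5, at means of 0.40, 0.69 and 0.37. The difference lay in the tumor dye: the Cy5 signal over chromosome 16 in tumor 5, relative to the autosomes of its array, was 0.52 above the mean of the other 7 arrays (log2), and the Cy3 reference signal differed from theirs by 0.0028.

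The chromosome gained in tumor 5 carries 679 protein-coding genes in RefSeq (GRCm38.p6, used for chromosome and order only). Gene positions on mm9 were not at hand, so no gene is placed within a segment, and RNA was not measured. From the centromere outwards, the genes linked to growth and cancer include Crebbp, a histone acetyltransferase, Socs1, which damps cytokine signalling, Bcl6, a transcriptional repressor, Gsk3b, a kinase that marks beta-catenin for destruction, Tiam1, an activator of the GTPase Rac1, and the transcription factors Runx1, Erg and Ets2. Of the liver genes, Ahsg, Fetub, Hrg and Kng1 encode plasma proteins made by hepatocytes, Nr1i2 encodes the xenobiotic receptor PXR, and Cpox encodes an enzyme of heme synthesis. App, Sod1, the superoxide dismutase of the cytosol, and the interferon receptor genes Ifnar1 and Ifngr2 lie further along. The lists held 22 growth and cancer genes, 12 liver genes and 8 stress and interferon genes, and all 42 lie on chromosome 16. They were chosen by chromosome, so this count is no result.

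Genes for miRNAs, short RNAs that repress target mRNAs, lie on the same chromosome, and the mature sequences of a few are shown to name what the gained chromosome of tumor 5 carries. Their RNA levels were not measured. RefSeq places 49 mature miRNAs from 30 hairpins on chromosome 16. They carry 48 different seeds, the bases 2 to 8 that pair with target mRNAs, and 1 seed is shared by 2 of them. The 6 printed here, 5′ to 3′ with the seed in capitals, are the let-7 family member let-7c and its cluster neighbours miR-99a and miR-125b, miR-6367, which has the seed of miR-125b, miR-155, known from immune cells, and miR-802, which is made in liver.
mmu-let-7c-5p: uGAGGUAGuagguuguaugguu
mmu-miR-99a-5p: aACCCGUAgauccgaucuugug
mmu-miR-125b-5p: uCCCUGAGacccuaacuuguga
mmu-miR-6367: uCCCUGAGacccugguucagga
mmu-miR-155-5p: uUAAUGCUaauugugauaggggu
mmu-miR-802-5p: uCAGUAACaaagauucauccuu
The same mature let-7c also comes from a locus on chromosome 15, and the same mature miR-125b from a locus on chromosome 9. Chromosome 15 was itself high in tumor 5, as given above.

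**Figure D2:**
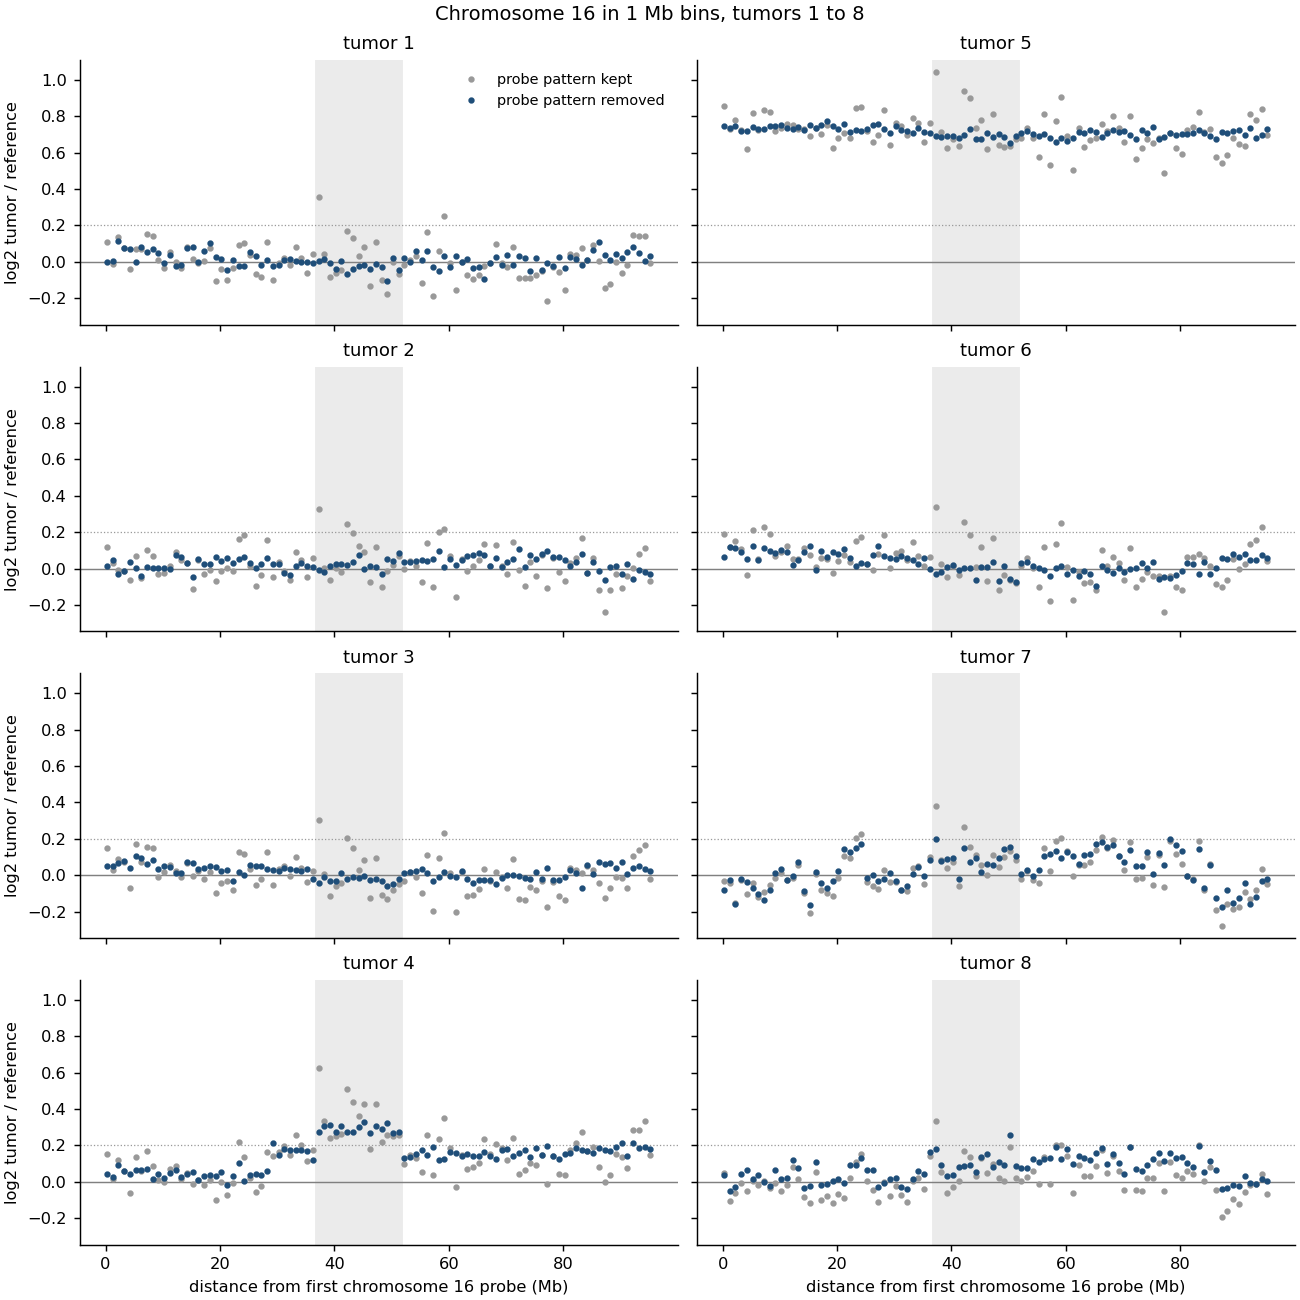
Log2 ratio of tumor over reference DNA in 96 bins of 1 Mb (vertical axis) against the distance in Mb from the first chromosome 16 probe, 1 panel per tumor, with the probe pattern kept (grey) and removed (blue). The shaded window is 40 to 55 Mb of mm9 and the dotted line is the call threshold of 0.2. Tumor 5 lies between 0.65 and 0.77 along its whole length with the pattern removed, and tumor 4 is raised most in the window.

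Tumor 4 gained part of chromosome 16, and its highest level lay in the window from 40 to 55 Mb, which was proposed with results of these data known and is therefore described without a test. The mean over the 917 probes of the window was 0.34 in tumor 4, against 0.071 on the proximal side and 0.14 on the distal side. The window exceeded the rest of the chromosome by 0.24 in tumor 4. In the other 7 tumors that difference was 0.014, 0.054, 0.0091, 0.030, 0.011, 0.12 and 0.081 in tumors 1, 2, 3, 5, 6, 7 and 8, so tumor 4 lay above all of them and tumors 7 and 8 came next. Removing the pattern left a difference of 0.18 in tumor 4, and -0.0069 ± 0.053 over the other 7 tumors (SD, n = 7), from -0.051 in tumor 3 to 0.084 in tumor 7. Taking the pattern from the other 7 arrays gave 0.20 for tumor 4. The difference was again in the tumor dye: the window minus the rest of the chromosome was 0.19 above the other arrays in Cy5 and -0.0017 relative to them in Cy3. Chromosome 15 had a mean of 0.31 in the same tumor.

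The segments of tumor 4 formed steps. With the pattern kept there were 3 segments, 0.069 over chr16:3257712-39327310 (2817 probes), 0.34 over chr16:39353041-55275421 (951 probes) and 0.14 over chr16:55285011-98280304 (2506 probes). The middle one was the only called gain and covered 16.8% of the probed length. On the less noisy second scale the proximal part split further: 0.040 up to 31813761, then 0.17 over chr16:31832780-40118875 (705 probes), then 0.30 over chr16:40133890-55221130 (920 probes). Beyond the peak the level was 0.17 over chr16:56089050-98280304 (2463 probes). The stretches on either side of the peak were thus at the same rounded level, both below the call threshold, and the most proximal stretch was lower than either. The peak alone was called, over 15.9% of the length. In 1 Mb bins, 27 of 96 chromosome 16 bins of tumor 4 were at or above 0.2 with the pattern kept, against 9.68% of all bins of that tumor, and 18 of 96 with it removed, against 5.1%. A hidden Markov model with 3 states placed 38.0% of the chromosome 16 probes of tumor 4 in its gained state and 100% of those of tumor 5.

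Each edge of the tumor 4 gain was located by a fit of 2 levels to up to 300 probes on either side, with a 95% interval that treats probes as independent and covers probe noise only. With the pattern removed, the first edge lay between probes at 31742324 and 31754020 (interval 31729788 to 31853639), with a rise of 0.16 ± 0.013 (SE over probes). The second lay between 40118875 and 40133890 (interval 40091464 to 40433745), with a rise of 0.13 ± 0.013. The third lay between 55221130 and 55231152 (interval 55162057 to 55241236), with a step of -0.15 ± 0.012. The intervals spanned 124, 342 and 79.2 kb. On the first scale the edges of the peak were fitted at 39327310 to 39353041 and at 55275421 to 55285011, with intervals of 1126 and 2966 kb that hold the positions of the second and the third edge above. The first edge was not separated on that scale.

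At the first edge no other tumor rose. The mean of the 5 Mb after the first edge minus that of the 5 Mb before it was 0.12 in tumor 4 with the pattern kept, and -0.062 to -0.034 in the other 7 tumors. At the second edge the same difference was 0.16 in tumor 4 and -0.018 to 0.096 in the others, with tumors 7 and 8 the highest of these at 0.096 and 0.072. At the third edge it was -0.16 in tumor 4 and -0.069 to 0.051 in the others. Tumor 4 lay outside the range of the other 7 at all 3 edges, on both scales. The positions were chosen from tumor 4 itself, so this is a description.

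**Figure D3:**
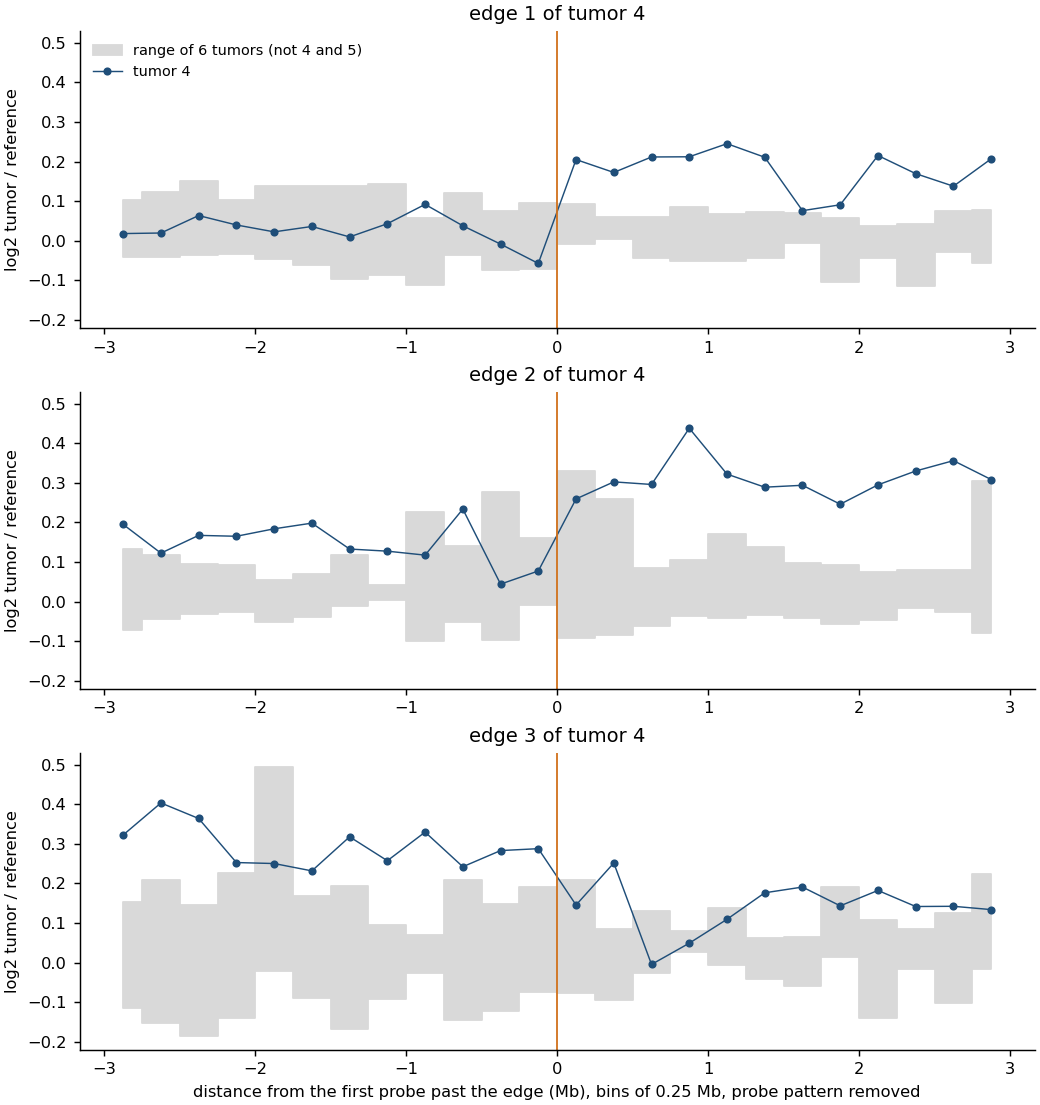
Log2 ratio of tumor over reference DNA with the probe pattern removed (vertical axis) in bins of 0.25 Mb against the distance from each of the 3 edges of tumor 4, for tumor 4 (line) and the range of the 6 tumors other than 4 and 5 (grey). In the 3 Mb after the first edge tumor 4 lies above the 6 others in 12 of 12 bins, and before it in 1 of 12. Around the second edge the contrast is small, with 11 of 12 bins above them after it and 9 of 12 before. In the 3 Mb before the third edge it lies above them in 11 of 12 bins, and after it in 6 of 12.

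A notch followed the third edge. Over chr16:55863234-56082721, a stretch of 219 kb with 22 probes, tumor 4 was at -0.069 with the pattern removed, between segments at 0.16 and 0.17. Relative to 500 kb on either side it was at -0.25 in tumor 4 with the pattern kept and -0.22 with it removed. The other 7 tumors ranged from -0.046 to 0.056 with the pattern kept and from -0.028 to 0.088 with it removed. Tumor 4 alone among the 8 lay more than 0.05 below its flanks there, and all 22 probes were above background in the reference. The notch was a segment of its own only with the pattern removed, in 1 tumor.

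Tumors 7 and 8 showed shallow waves along the chromosome, and these arrays also had other noise (0.39 with the pattern kept against 0.62 to 0.65). With the pattern removed they were the noisiest arrays, at 0.213 and 0.181 against 0.119 to 0.165 in tumors 1 to 6. Tumor 7 had 7 segments with the pattern kept. The lowest, at -0.22 over chr16:89436801-94436214 (369 probes, 5.27% of the length), was the only loss called on chromosome 16 on that scale. After removal of the pattern its level was -0.12 over chr16:89436801-98280304 (700 probes) and was not called. A step down near the same place was fitted in tumor 8, of -0.13 ± 0.015 with the pattern removed between 89724484 and 89748218, against -0.16 ± 0.017 in tumor 7 between 89423349 and 89436801. Tumor 2 stepped down there too on that scale, by -0.090 ± 0.014 between 89379651 and 89398029. In tumor 6, with the pattern removed, the level rose by 0.067 ± 0.012 between 89904072 and 89921614, the opposite direction. Tumors 1 and 3 also rose, more proximally, by 0.074 between 88425332 and 88442965 and by 0.057 between 87126722 and 87168299. Tumor 7 had 1 further gained stretch with the pattern removed, 0.26 over chr16:42871029-43449905 (60 probes), and a stretch at -0.19 over chr16:17392790-18808489 (132 probes) just short of the threshold. Tumor 8 had no loss call on either scale. The hidden Markov model placed 5.87% of the chromosome 16 probes of tumor 7 in its lost state and 2.55% in its gained state. In tumor 8 it placed 0.909% in the gained state and 0% in the lost state. The model's shares over all probes of tumors 7 and 8 are not given here either. After removal of the pattern, tumors 7 and 8 still correlated at 0.39 over the chromosome 16 probes. The part of this shared pattern and of the array noise in these waves was not tested.

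In tumors 1, 2, 3 and 6 the chromosome was close to flat. The bins at or above 0.2 with the pattern kept numbered 2, 4, 3 and 6 in these tumors, against 2.53%, 3.08%, 4.19% and 4.98% of all bins, and 6 and 2 in tumors 7 and 8, against 2.81% and 5.25%. Once the pattern was removed, 0 of the 96 bins reached 0.2 in any of these 4 tumors, where 0.79%, 0.277%, 3.71% and 3.99% of all bins did. In none of the 8 tumors was a chromosome 16 bin at -0.2 or below on that scale, where 17.6%, 2.21%, 30.4%, 10.2%, 0.435%, 37.0%, 5.41% and 12.3% of all bins of tumors 1 to 8 were. In tumors 1, 2, 3 and 6 the bin means ran from -0.11 to 0.13 on that scale. Tumors 7 and 8 had 1 bin each at or above 0.2, against 0.83% and 6.24% of all bins. Called segments in these 4 tumors covered at most 0.084% of the length on the second scale and 0.058% on the first. On the second scale tumor 6 was at 0.089 over chr16:3257712-18964258 and -0.0058 over chr16:38952083-89904072, and higher again, at 0.061, from 90 to 100 Mb. With the pattern kept its highest segment began at 94781852, at 0.17, below the call threshold.

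Across the 8 tumors limma tested the mean of every 1 Mb bin against a log2 size of 0.1. With the pattern kept it called 0 of the 96 chromosome 16 bins higher and 0 lower than the pool at an adjusted p under 0.05 over 2531 bins, against 0.0395% of bins called higher and 0.079% lower in the genome. At an unadjusted p under 0.05, 9 of the 96 bins were higher and 0 lower, beside 84 higher and 249 lower of the 2531 bins of the genome. The median over the chromosome 16 bins was 0.11, beside -0.061 over all bins, and 91 of the 96 means were above 0. Without tumor 5 the medians were 0.024 and -0.075, and 62 of the 96 means were above 0. On the other scale 0 bins were called in either direction (0.0% of all bins) and 0 passed the unadjusted p, where 84 of all 2531 bins were higher and 104 lower. Other settings gave other counts: 42 bins were higher with the median of each array at 0 (9.84% of all bins), 9 with limma's eBayes test against 0 (5.06%) and 1 with slide as a random block (0.79%). The 5 bins with the highest mean were those that start at 40, 62, 45, 46 and 50 Mb. The highest, chr16:40000001-41000000 (65 probes), was at 0.36, 0.33, 0.30, 0.63, 1.04, 0.34, 0.38 and 0.33 in tumors 1 to 8, with a mean of 0.46 ± 0.26 (SD, n = 8; limma adjusted p = 0.0749). It was the highest bin of the chromosome in each of the 8 tumors, and with the pattern removed its values were at most 0.27 outside tumor 5. Without tumor 5 it was the 1 bin called on the chromosome, with a mean of 0.38 and a limma adjusted p of 0.0343, where 0.119% of all bins were called higher. The lowest bins were those that start at 90, 80, 64, 60 and 91 Mb, and the lowest, chr16:90000001-91000000 (83 probes), had a mean of -0.068 ± 0.26 (SD, n = 8; limma adjusted p = 1.0).

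The bins that start at 40 and 46 Mb each overlap a short region that was raised on all 8 arrays. The first, chr16:39768864-40590508 (46 probes, 822 kb), was called in tumors 7 and 8 at 0.57 and 0.55. Its mean was 0.58, 0.54, 0.52, 0.77, 1.26 and 0.57 in tumors 1 to 6, so the tumors without a call were about as high or higher. Relative to 500 kb on either side it was raised by 0.48 ± 0.042 (SD, n = 8), from 0.40 to 0.53. A single probe, chr16:40311544-40311603, was at 4.71 to 6.59 and its reference signal was not well above background on any of the 8 arrays, so its ratio is only a bound. Over the 41 probes well above background in both channels on every array the region exceeded its flanks by 0.36 ± 0.044 (SD, n = 8). On the second scale it exceeded its flanks by 0.17 and 0.19 in tumors 7 and 8 and by -0.12 to 0.0043 in tumors 1 to 6. Tumors 7 and 8 still shared a probe pattern on that scale (correlation 0.39 over the chromosome 16 probes), and its part in their excess was not tested.

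The second region, chr16:46059975-46115156 (5 probes, 55.2 kb), was the highest segment of the chromosome. It was called in tumors 1, 3 and 5 at 1.92, 1.87 and 2.84, and its means in tumors 2, 4, 6, 7 and 8 were 1.86, 2.11, 2.07, 1.51 and 1.44. All 8 tumors were thus high over the same 5 probes, gained chromosome or not. The reference signal of these probes was between -2.21 and -1.85 relative to the median of its array (log2), and 1 of the 5 was not well above background in the reference. Over the other 4 probes the mean was 1.47 ± 0.48 (SD, n = 8). Without the pattern the region was at -0.13 to 0.85, the highest in tumor 5. Segments under 3 Mb with a mean of at least 0.5 numbered 5 of the 27 chromosome 16 segments among the tumors, all in these 2 regions. Over all chromosomes such segments numbered 15 of 579 (2.59%). The count on chromosome 16 with the pattern removed was 0, against 0.673% of the segments of all chromosomes. A difference between the FAH-/- mice and the pool and a difference in how these probes respond to the dyes cannot be told apart, since every array holds the same pool in the same dye.

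**Figure D4:**
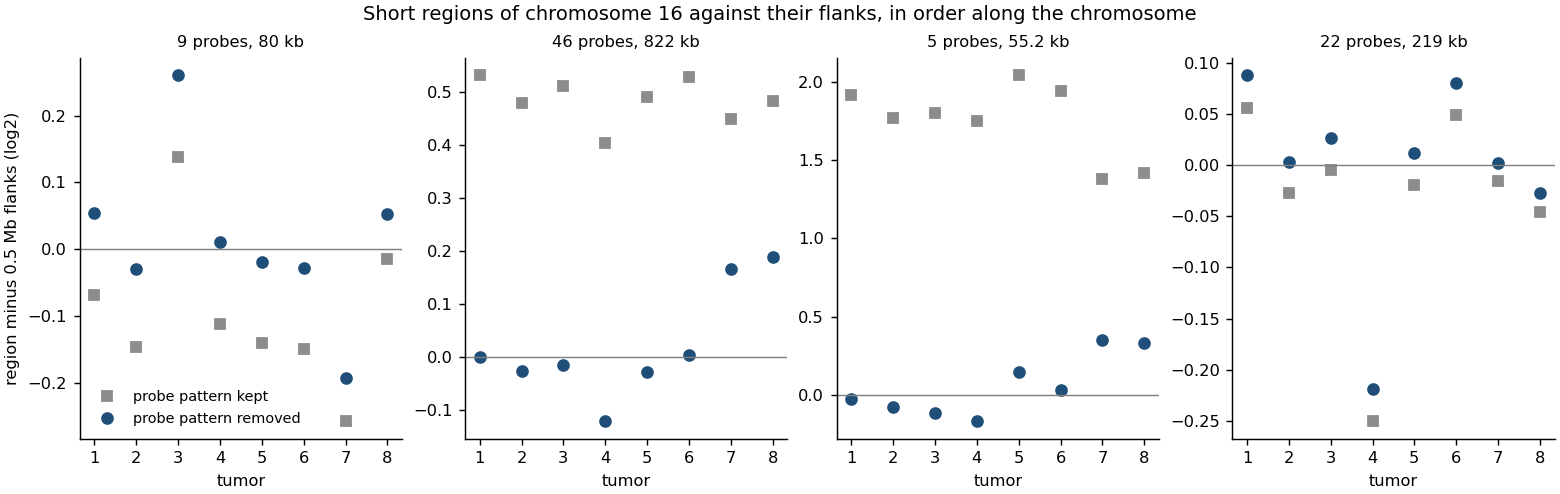
Mean log2 ratio of 4 short regions minus that of 500 kb on either side (vertical axis; each panel has its own range) in tumors 1 to 8, with the probe pattern kept (squares) and removed (circles). The regions of 46 and 5 probes are raised in all 8 tumors with the pattern kept, the region of 9 probes is highest in tumor 3, and the region of 22 probes is low only in tumor 4, at -0.25.

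Another short region was called in 1 tumor only with the pattern removed. It is chr16:35135017-35215033 (9 probes), at 0.29 ± 0.066 (SE over probes) in tumor 3 and 0.26 above its flanks. Tumor 7 was at -0.27 over the same probes and at -0.19 relative to its flanks, and the other 6 tumors lay between -0.029 and 0.055 relative to theirs. When the pattern was taken from the other 7 arrays, tumor 3 was at 0.34 over these probes and 0.31 above its flanks, while the segmentation called no gain there. With the pattern kept, tumor 3 was at 0.11 and 0.14 above its flanks, and 0.074 above them over the 8 probes well above background. Its Cy3 reference signal over the region, -0.31 relative to the array median (log2), was the lowest of the 8 arrays. The Cy5 signal of tumor 3, at -0.082, lay inside the range of the arrays, -0.54 to 0.29. Whether the tumor DNA is raised there was not tested.

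Probes raised in every tumor were counted over the whole chromosome as well. Of 6264 chromosome 16 probes with values on all arrays, 61 (0.974%) were at 1 or above in 8 of 8 tumors, against 0.544% of the 169967 probes of the genome. At -1 or below in 8 of 8 tumors were 0 chromosome 16 probes, against 0.114% in the genome. With the pattern removed 0 probes remained in either direction, on chromosome 16 or elsewhere, as the removal takes out what all arrays share. Of the 61 probes, 4 were not well above background in the reference on any array.

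The arrays came from 2 slides of 4 arrays each. Tumors 1 to 4, on one slide, had a chromosome 16 mean of 0.044 ± 0.065 (SD, n = 4) and tumors 5 to 8, on the other, 0.19 ± 0.35 (SD, n = 4). The difference of -0.15 did not pass (two-sided exact permutation p = 0.714 over 70 splits, of which the smallest possible is 0.0286). The second slide holds tumor 5, at 0.72, beside 0.049, 0.0037 and 0.0043 in tumors 6 to 8. With that spread and 4 arrays per slide the test cannot tell whether the slides differ. Tumors 4 and 5, which carry the partial and the whole gain, lie on different slides. The files give no gene for a probe, so the deletion of Fah, which lies on another chromosome, was not checked here.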

How the data were processed

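Per the submitters' processing notes and the file headers, images were read with Agilent Feature Extraction 10.7.3.1, and positions are on mm9. The deposited processed signals are intensity values, corrected for background and dye by the authors, and the deposited log ratios are log10 of red (Cy5, tumor) over green (Cy3, pool). In the deposited series table these log10 ratios are rounded and differ from the arrays' own by at most 0.00499. Quality marks of 0 or 1, a unit of the kind other, are deposited per spot.

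Log2 ratios of the processed signals were computed, spots marked as outliers were left out, spots of a probe were averaged, and each array was segmented by recursive circular binary segmentation (split z 6, merge z 4, at least 5 probes, written in Python 3.11.15 with numpy 2.4.6 and numba 0.67.0) and set to 0 at its commonest autosomal segment level (density bandwidth 0.03, step 0.005). To remove the pattern, chromosome medians were taken off, each probe's median over the arrays was fitted to every array by least squares, and the fit was subtracted. A call needs 0.2 in size. Bins of 1 Mb with at least 10 probes were tested with limma 3.58.1 (treat, R 4.3.3). The scripts were tested on simulated data. Normexp was run on the median spot signals (offset 50), which took the place of mean signals. Of the 6430 chromosome 16 spots, 97.8% to 99.9% per array were well above background in red and green, and the median signal was 4.17 to 11.1 times the background. The number of arrays limits precision. The chromosome, its window, the gene lists and the rule for named regions (called segments, short segments, the 5 highest and lowest bins) were chosen with earlier results of these data known. The notch of tumor 4, the 9-probe region of tumor 3 and the shorter or uncalled stretches of tumors 6, 7 and 8 fall outside that rule and were picked after their values were seen. The fitted steps of tumors other than tumor 4 were also picked after their values were seen. Alternatives were the scale, zero, background, dim probes, call threshold, segmentation, bin size, slide, test and tumors left out.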

Additional observations from a re-analysis of the deposited data

Results flagged for a closer look

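The chromosome 16 mean of tumor 5 stood apart from the other 7 tumors by Dixon's criterion at the 95% level, at 0.717 with the probe pattern kept and 0.715 with it removed, the next highest being tumor 4 at 0.14 on both scales. The criterion marks about 1 in 20 sets of values by chance, and both scales come from the same arrays. Chromosome 16 was itself chosen with earlier results of these data known, so that rate does not hold for it. The outcome is thus a description. The window from 40 to 55 Mb and the short regions were likewise chosen on these values, and the criterion was not applied to them.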

How the results depend on the processing

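The positive direction of the chromosome 16 mean held in all alternatives run, and its call did not. The mean was 0.128 with the probe pattern removed, 0.124 with normexp background, 0.118 over probes well above background and 0.157 without tumors 7 and 8, with adjusted p of 0.0781, 0.0625, 0.067 and 0.125 from exact sign-flip tests, and 0.033 to 0.135 with each tumor left out in turn (adjusted p 0.0521 to 0.0781, where the smallest exact p is 0.0156). With each array median at 0 it was 0.264 (adjusted p 0.0391). The difference from the other autosomes ranged from 0.057 to 0.157 with each tumor left out and passed in none. A whole gain was called in 4 tumors (1, 4, 5 and 6) with the array median at 0 and in 1, tumor 5, under the other 6 alternatives. The limma count of higher bins, 0, was 42 with the array median at 0, where 9.84% of all bins were called higher, 9 with eBayes against 0 (5.06%), 1 with slide as a random block, and 0 to 1 with each tumor left out. In tumor 4 the window minus the rest was 0.177 with the pattern removed, and the window mean was 0.294 with the pattern removed, 0.478 with the array median at 0 and 0.203 as a median over probes. Short segments numbered 5, and 0 with the pattern removed, 0 with the pattern of the other 7 arrays and 3 at a size of at least 0.8. No paired analysis was possible because the 8 tumors form 1 group against 1 pool. The probe spacing of 11.1 kb limits what short changes can be seen.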
